A study of Mus musculus with 4 samples.

Results

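The tumour necrosis factor (TNF) ligand and receptor superfamily was followed in mouse distal colon through every probe set that the platform's annotation assigns to 1 gene with a superfamily symbol, such as Tnf, Ltb, Fas, Cd40, Tnfsf10 or Tnfrsf1a. This gave 67 of 45101 probe sets and 39 genes, of 18193 genes measured, and each gene was represented by its probe set of highest mean value. The 39 genes were 14 ligands, 7 receptors with a death domain, 15 other receptors and 3 decoy receptors. Of 44 RefSeq genes with such symbols, the other 5 (Tnfsf12, Tnfsf13, Tnfsf15, Tnfsf18 and Tnfrsf26) were not analysed here.

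The 4 samples were pieces of distal colon, 1 in each group and each on 1 Affymetrix array: Adamts12-deficient (KO) mice given dextran sodium sulfate (DSS), untreated KO mice, wild-type (WT) mice given DSS and untreated WT mice. Adamts12 encodes a secreted metalloprotease, and DSS damages the gut lining and is used to induce colitis. DSS was given at 2% in the drinking water, for 7 days in the series text and 8 days in the treatment protocol, then withdrawn for 1 day, and treatment began at 8 to 10 weeks of age. The labels name no strain and no other allele or agent, and give neither the removed part of Adamts12 nor the number of mice behind a sample. With a single array in each group, no difference between a pair of arrays has a replicate check.

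Ligands of the superfamily are mostly trimeric membrane proteins that can also be released, and they signal by clustering their receptors. Receptors with a death domain can recruit caspases or activate the transcription factor NF-kB, the other receptors act through TRAF adaptors, and decoy receptors bind a ligand without passing on its signal. In the gut the family is known for TNF, a target of therapy in inflammatory bowel disease, for lymphotoxin and RANK ligand, which build lymphoid follicles, and for BAFF and its receptors, which keep B cells alive.

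All 4 arrays had bright epithelial transcripts (9.80 to 12.33 on the log2 scale over 6 markers, keratins and Epcam among them), but the untreated KO array stood apart in genes of position along the gut. All 9 proximal gut markers were at least 2-fold higher on it than on the untreated WT array. Of 7 distal colon markers, 6 were at least 2-fold lower. Among them was Hoxb13, a homeobox gene of the hindgut, with values of 2.48 in untreated KO and 9.47 in untreated WT. The remaining distal marker, Car1, went the other way, at 12.9 in untreated KO and 10.19 in untreated WT, a difference of 2.71. A list of 10 posterior Hox genes, Hoxb13 included, was mixed. Its differences had a median of -1.42, with 6 below 0 and 4 above, the highest 0.56. Every comparison that uses the untreated KO array carries this difference in gut position. Differences with smaller medians lay between other arrays. With DSS in WT, 4 of 7 distal markers were at least 2-fold lower and none higher (median -1.63, lowest -4.6 for Hoxd13). Of 9 proximal markers, 4 were higher and 1 lower (median 0.95, highest 3.4 for Isx). On the KO DSS array against untreated WT, 5 of 7 distal markers were at least 2-fold lower and none higher (median -1.62). Of the proximal markers, 1 was higher and 2 lower. Between the DSS arrays, KO against WT, 4 of 9 proximal markers were at least 2-fold lower and none higher (median -0.86). Of the 7 distal markers, 1 was higher and 1 lower there (median -0.16). The part of gut position in the results was not tested. The comparison of the KO DSS array with the untreated WT array leaves out the untreated KO array. These arrays differ in genotype as well as treatment, so this comparison cannot separate DSS from the loss of Adamts12. This comparison is given beside the counts of DSS differences in KO, and beside each gene whose call it ends. The brighter Adamts12 probe set read 1.41 on the KO DSS and 1.42 on the KO untreated array, against 2.18 on both WT arrays. The other Adamts12 probe set lay at 0.97 or lower on the 4 arrays, so all values lay at or under the background limit given next and the genotype check is weak.

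Values are the deposited ones, on the log2 scale, and a difference of 1 is 2-fold. Values at or under 2.41, the highest of 13 probe sets for Y-linked genes on these 4 arrays, all with bright Xist, were read as not above background. The limit rests on 1 Sry probe set (2.29 to 2.41), and the next highest, of Usp9y, reached 1.68. By that limit, and on the probe set used for each gene, 25 of the 39 genes were above background on all 4 arrays, 8 on none (Cd27, Cd70, Edar, Lta, Tnfrsf8, Tnfsf4, Tnfsf11 and Tnfsf14) and 6 on some. A second probe set of Tnfsf11 was above it on the KO DSS array. The values of those 8 lay between 1.57 and 2.41, so their order over the arrays was not read. Among them are the costimulatory pair Cd27 and Cd70, Tnfsf4 (OX40 ligand), Tnfsf14 (LIGHT), Tnfrsf8 (CD30) and the ectodysplasin receptor gene Edar of skin appendages. Over all genes, 21.5% were above it on no array. Probe sets of different genes bind with different strength, so levels are compared between arrays and not between genes.

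With values under the limit set to it, the KO DSS array was the highest of the 4 for 16 of the 39 genes (41.0%), where it was the highest for 17.0% of all genes. The untreated KO array was the highest for 7 of the 39, against 25.6% of all genes, the WT DSS array for 4, against 16.5%, and the untreated WT array for 3, against 17.5%. These shares were added after the values were seen and have no test.

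**Figure D1:**
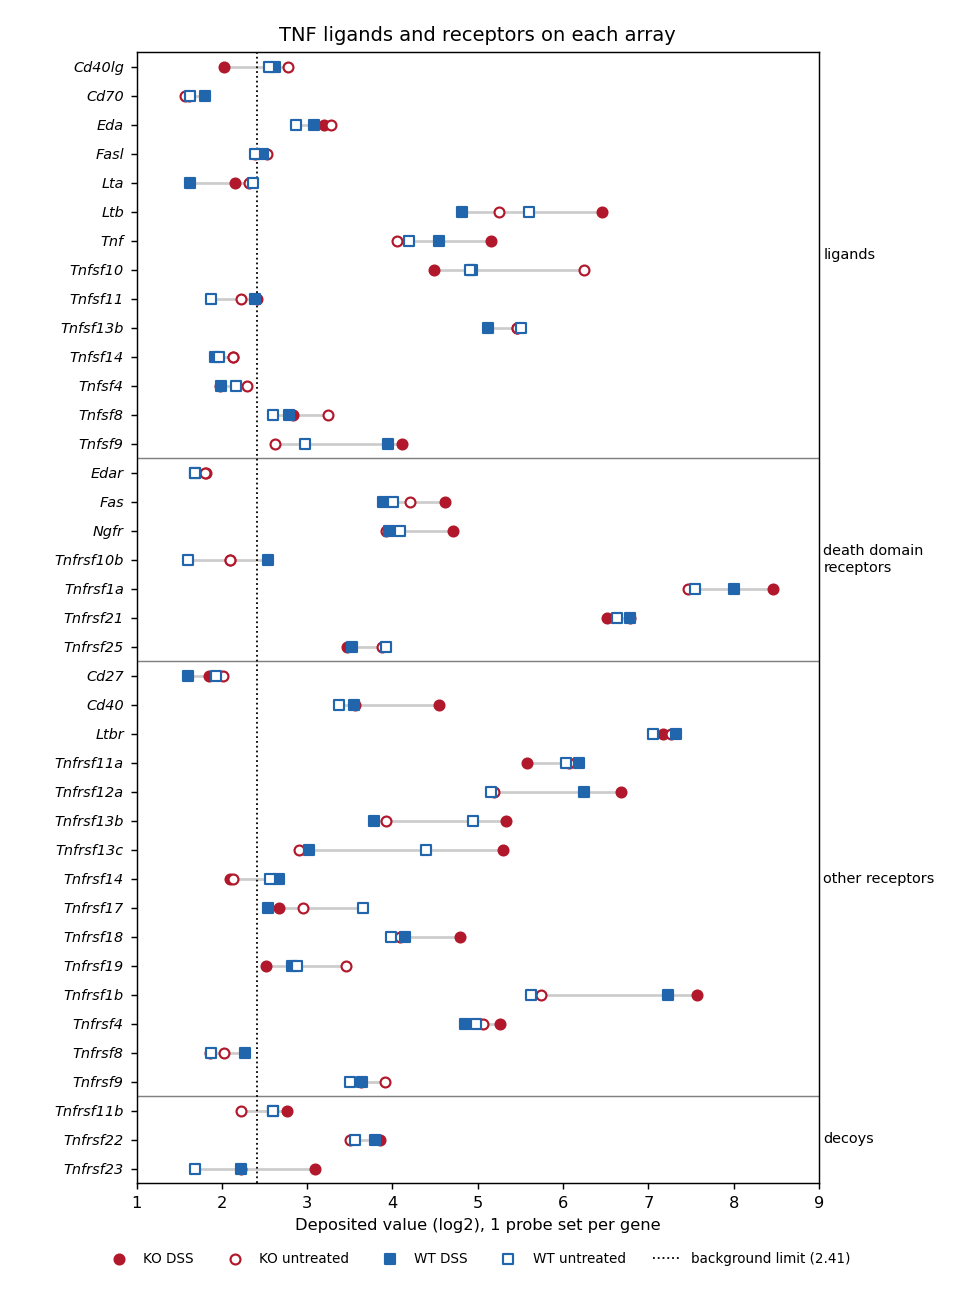
Deposited log2 value (x axis) of the 39 superfamily genes (rows, grouped by role) on each of the 4 arrays: KO as circles, WT as squares, DSS filled, untreated open, with a dotted line at the background limit of 2.41. The widest spreads are those of Tnfrsf13c (2.91 to 5.30), Tnfrsf1b (5.63 to 7.57) and Tnfsf10 (4.49 to 6.24), while 8 genes lie at or left of the line on every array.

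DSS treatment was compared with no treatment within each genotype, to ask how the injured colon differs. Tnfrsf1b and Tnfrsf12a were the 2 genes of the 39 at least 2-fold higher with DSS in both genotypes, against 1.66% of all genes, and Tnfsf9 was 0.98 higher in WT. In KO, 8 of the 39 genes were at least 2-fold higher with DSS, against 7.41% of all genes, and 1 was at least 2-fold lower, against 4.73%. In WT, 2 were higher, against 3.92% of all genes, and 3 lower, against 3.48%. The median log2 difference of the 39 genes was 0.00 in KO and 0.10 in WT, against -0.05 and 0.00 over all genes. With the untreated WT array as baseline for KO, 5 of the 39 were at least 2-fold higher, against 4.24% of all genes, and none was lower, against 3.57%. The 5 were Tnfrsf1b (1.94), Tnfrsf12a (1.53), Tnfrsf23 (1.41 as deposited, at least 0.68 above the background limit), Cd40 (1.18) and Tnfsf9 (1.14).

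The receptors for TNF itself were higher with DSS. Tnfrsf1b, which encodes TNF receptor 2, found mainly on immune and endothelial cells, had values of 7.57 with DSS and 5.74 untreated in KO, and of 7.23 with DSS and 5.63 untreated in WT. Both DSS arrays lay above both untreated arrays, by 1.83 in KO (3.56-fold) and 1.60 in WT (3.03-fold). Its second probe set gave 1.12 in KO and 1.14 in WT. Tnfrsf1a, the widely expressed TNF receptor 1 with a death domain, had values of 8.46 with DSS and 7.46 untreated in KO, and of 8.00 with DSS and 7.55 untreated in WT. The difference was 1.00 in KO and 0.45 in WT, again with both DSS arrays on top. Tnf read 5.16 with DSS and 4.05 untreated in KO, and 4.55 with DSS and 4.19 untreated in WT, differences of 1.11 and 0.36. With untreated WT as the baseline, the KO DSS values were higher by 0.97 for Tnf and 0.91 for Tnfrsf1a.

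Tnfrsf12a encodes Fn14, the receptor for TWEAK, a small receptor induced in injured tissue. It read 6.68 with DSS and 5.19 untreated in KO, and 6.24 with DSS and 5.15 untreated in WT. The untreated arrays were nearly alike, and the DSS arrays were higher by 1.49 in KO and 1.09 in WT. On its second probe set the differences were 2.14 and 0.90. Tnfsf9, the ligand of the T cell costimulator 4-1BB, read 4.11 with DSS and 2.62 untreated in KO, and 3.95 with DSS and 2.97 untreated in WT. It was higher by 1.49 and 0.98, with both DSS arrays above both untreated ones. Its receptor gene Tnfrsf9 differed by -0.28 and 0.14.

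Limma's additive model, which takes genotype as covariate and reads the disagreement between genotypes as error, called none of the 39 genes for DSS at an adjusted p under 0.05, and 0.0% of all genes. At an unadjusted p under 0.05 it found 4 of the 39, against 8.7% of all genes: Tnfrsf1b, Tnfrsf12a, Tnfsf9 and the decoy receptor gene Tnfrsf23, all higher, the last of them above background on 1 array only. The adjusted p in limma's test was 0.52 for Tnfrsf1b, Tnfrsf12a and Tnfsf9 alike. Tnfrsf1b had a log2 difference of 1.72 (SE 0.23) and the higher value with DSS in both genotypes. Tnf and Tnfrsf1a had limma adjusted p values of 0.627 and 0.583, with log2 differences of 0.73 (SE 0.32) and 0.72 (SE 0.26).

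Markers of neutrophils differed with DSS in both genotypes and those of stromal cells mainly in KO, and their part in the values of these genes was not tested. In bulk tissue fewer cells of a type and less RNA per cell cannot be told apart. Of 10 neutrophil markers, 6 differed upward at least 2-fold with DSS in KO and 3 in WT. Their summed linear signal was 860.9 with DSS and 92.2 untreated in KO, and 168.1 with DSS and 61.7 untreated in WT. S100a9 (8.38) and S100a8 (8.3) were the brightest on the KO DSS array and made up most of its sum. Cxcr2 (-0.37) and Ngp (-0.13) went the other way in KO. On the untreated WT array, 6 of the 10 were not above background. On the KO DSS array against untreated WT, 7 of the 10 neutrophil markers were at least 2-fold higher. Of 12 macrophage and monocyte markers, cells known to make TNF, 1 was at least 2-fold higher and 2 lower in KO, and 1 was lower in WT. The last was Cd163, not above background with DSS in WT, and only -0.85 to the limit. Against untreated WT, none of these 12 reached 2-fold on the KO DSS array. Their summed signal was 1644.9 with DSS and 1483.8 untreated in KO, and 1219.9 with DSS and 1417.0 untreated in WT. The 8 fibroblast markers summed to 3752.6 with DSS and 1938.8 untreated in KO, and to 1822.7 with DSS and 2370.6 untreated in WT, with medians of 0.92 and -0.23. The 6 endothelial markers summed to 143.7 with DSS and 90.8 untreated in KO, and to 98.6 with DSS and 103.7 untreated in WT, with medians of 0.74 and -0.04. For the KO DSS array against untreated WT, the medians were 0.77 for fibroblast and 0.64 for endothelial markers. The 6 smooth muscle markers had medians of 0.41 with DSS in KO and -0.55 in WT, and none reached 2-fold.

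**Figure D2:**
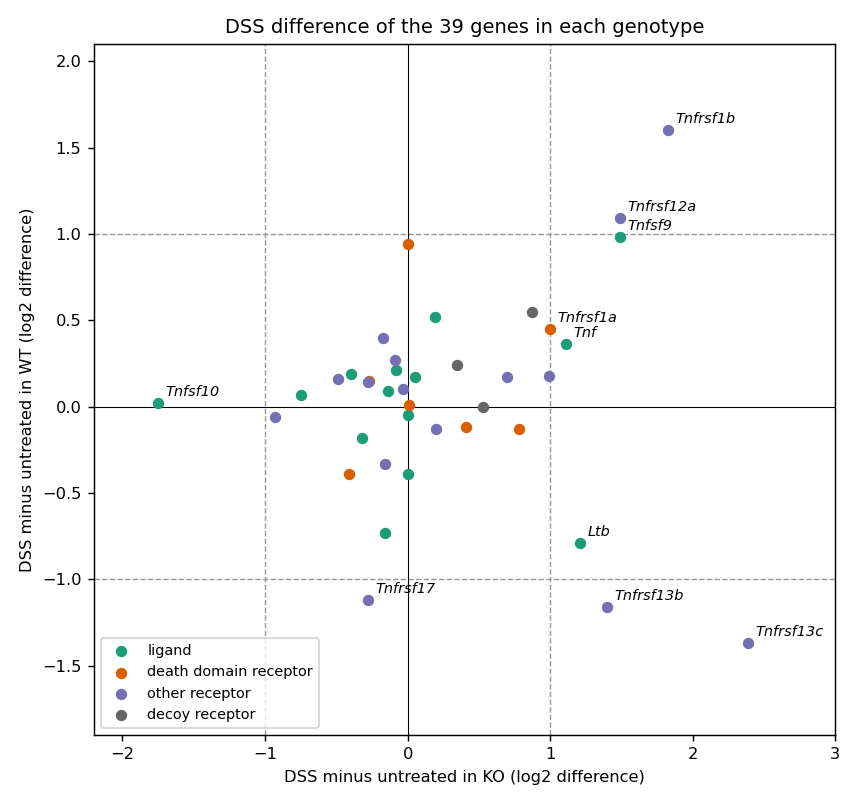
Log2 difference of DSS minus untreated in KO (x axis) and in WT (y axis) for the 39 genes, coloured by role, with dashed lines at 2-fold. Tnfrsf1b (1.83, 1.60) and Tnfrsf12a (1.49, 1.09) lie beyond 2-fold on the upper right, Tnfrsf13b (1.40, -1.16) and Tnfrsf13c (2.39, -1.37) on the lower right, and Tnfsf10 (-1.75, 0.02) on the left.

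Promoters of 4 genes named in the DSS comparison are shown, because these genes gave differences described in the text. Each window runs from 250 bases before to 50 after the RefSeq start. Capitals mark the NF-kB consensus motif, a 10-base site.
Tnfrsf1b (GRCm38.p6, chr4:145246821-145247120, - strand): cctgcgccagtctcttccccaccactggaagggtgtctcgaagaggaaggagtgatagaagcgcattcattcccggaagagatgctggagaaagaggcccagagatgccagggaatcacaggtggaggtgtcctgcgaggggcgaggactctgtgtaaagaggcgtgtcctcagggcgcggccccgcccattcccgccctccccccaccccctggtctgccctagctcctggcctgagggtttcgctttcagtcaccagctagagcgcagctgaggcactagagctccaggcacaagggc
Tnfrsf12a (GRCm38.p6, chr17:23677400-23677699, - strand): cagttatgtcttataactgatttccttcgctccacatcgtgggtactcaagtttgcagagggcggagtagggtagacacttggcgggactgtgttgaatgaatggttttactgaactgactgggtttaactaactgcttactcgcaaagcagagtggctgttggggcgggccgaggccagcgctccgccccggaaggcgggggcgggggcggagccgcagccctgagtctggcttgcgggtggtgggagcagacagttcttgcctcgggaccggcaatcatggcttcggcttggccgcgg
Ltb (GRCm38.p6, chr17:35194257-35194556, + strand): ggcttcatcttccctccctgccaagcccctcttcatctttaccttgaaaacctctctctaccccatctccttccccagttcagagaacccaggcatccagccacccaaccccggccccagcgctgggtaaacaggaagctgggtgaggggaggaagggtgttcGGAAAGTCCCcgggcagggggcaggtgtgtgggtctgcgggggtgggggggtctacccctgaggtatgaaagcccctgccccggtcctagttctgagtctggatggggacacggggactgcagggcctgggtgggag
Tnfrsf13c (GRCm38.p6, chr15:82224331-82224630, - strand): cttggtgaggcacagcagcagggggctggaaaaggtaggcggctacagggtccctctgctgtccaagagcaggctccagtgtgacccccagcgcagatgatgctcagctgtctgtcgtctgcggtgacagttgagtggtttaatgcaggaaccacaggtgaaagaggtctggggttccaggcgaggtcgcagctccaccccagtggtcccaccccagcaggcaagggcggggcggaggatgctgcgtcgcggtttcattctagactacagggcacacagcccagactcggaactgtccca

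Of these 4 windows, the one of Ltb held the NF-kB consensus motif, 87 bases before the start. The motif was searched on both strands in 35 windows of 31 of the 39 genes, and 4 windows held it (11.4%), against 8.46% of 32851 promoter windows of the same length. The other windows belonged to Tnfrsf8, Tnfrsf9 and Tnfrsf25. The AP-1 motif TGANTCA, searched on both strands, was found in 6 of the 35 windows, of Fas, Tnfrsf8, Tnfrsf9, Tnfsf13b and Tnfsf14 (17.1%), against 7.81% of all windows. The windows of Tnfsf13b overlap and share the same match, so the windows with a match outnumber the sites. The octamer motif ATGCAAAT, known from B cell genes, was found in none of the 35 windows, against 1.74% of all. The AP-1 and octamer motifs were searched after the NF-kB result was seen. A match is a description of letters and not a site in use.

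Tnfrsf13c, Tnfrsf13b and Ltb differed with DSS in opposite directions in the 2 genotypes. Tnfrsf13c encodes the BAFF receptor of mature B cells, and had values of 5.30 with DSS and 2.91 untreated in KO, and of 3.02 with DSS and 4.39 untreated in WT. The KO DSS and WT untreated arrays were high and the other 2 low, so that DSS minus untreated was 2.39 in KO and -1.37 in WT. Tnfrsf13b, which encodes TACI, a second BAFF receptor of B cells, had values of 5.33 with DSS and 3.93 untreated in KO, and of 3.78 with DSS and 4.94 untreated in WT. Its arrays fell in the same order of high and low pairs, with differences of 1.40 and -1.16. These were the 2 genes of the 39 that were at least 2-fold higher in KO and lower in WT, against 0.544% of all genes. With untreated WT as the baseline, KO DSS values were higher by 0.91 for Tnfrsf13c and 0.39 for Tnfrsf13b.

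Ltb, which encodes the membrane anchor of lymphotoxin, a ligand made by lymphocytes, read 6.46 with DSS and 5.25 untreated in KO, and 4.81 with DSS and 5.60 untreated in WT. Here too the sign differed, at 1.21 in KO (0.86 against the untreated WT array) and -0.79 in WT. Its receptor gene Ltbr, expressed by stromal and epithelial cells, differed by no more than 0.27 in any comparison, between 7.05 and 7.32. Tnfrsf17, which encodes BCMA of plasma cells, read 2.67 with DSS and 2.95 untreated in KO, and 2.54 with DSS and 3.66 untreated in WT. DSS minus untreated was -0.28 in KO and -1.12 in WT, and all its values lay near the background limit except that of untreated WT. Tnfsf13b, the gene of the ligand BAFF, read 5.46 with DSS and 5.46 untreated in KO, and 5.12 with DSS and 5.51 untreated in WT, differences of 0.00 and -0.39, so neither it nor Tnfrsf17 had opposite signs. Ltb, Tnf and Lta are next to each other on chromosome 17, and of these Lta was not above background on any array.

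B cell markers had the same pattern across the arrays as Tnfrsf13c and Tnfrsf13b. Of 8 markers, DSS went with at least 2-fold higher values for 7 in KO and lower values for 4 in WT, and none went the other way. Against the untreated WT array, 1 of the 8 was at least 2-fold higher on the KO DSS array. Their medians were 2.17 and -1.05, and their summed linear signal was 606.9 with DSS and 116.2 untreated in KO, and 138.5 with DSS and 334.9 untreated in WT. Ms4a1, which encodes CD20, read 7.29 with DSS and 4.10 untreated in KO, and 4.72 with DSS and 6.66 untreated in WT. The marker that went against the others was Pax5, at -0.46 and 0.20. Plasma cell markers summed to 3449.1 with DSS and 2559.1 untreated in KO, and to 2516.3 with DSS and 4612.8 untreated in WT. The part of these cells in the values of Tnfrsf13c, Tnfrsf13b, Ltb and Tnfrsf17 was not tested.

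Genes linked to lymphoid follicles were measured beside them, from a list with 4 members on the array. Cxcl13, which attracts B cells into follicles, was higher with DSS by 2.56 in KO and differed by -0.43 in WT. Madcam1, an adhesion molecule of gut vessels, was higher by 2.25 in KO and 0.87 in WT. Cr2, the complement receptor of B cells and follicular dendritic cells, differed by at least 2.94 in KO and by -1.33 in WT, and Glycam1 by at least 1.87 and by -0.80. So 4 of 4 reached 2-fold with DSS in KO, and 1, Cr2, which is also on the B cell list, was 2-fold lower in WT. Against untreated WT, 3 of the 4 reached 2-fold (median 1.10), and Glycam1 differed by 0.30. Btla, a receptor bound by HVEM and present on B cells, differed by 2.91 and -1.26, and Spib, a transcription factor of B cells and M cells, by 1.2 and -1.55. For the KO DSS array against untreated WT the values were 1.22 for Btla and 0.15 for Spib.

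Cd40, a costimulatory receptor of B cells and other antigen-presenting cells, read 4.55 with DSS and 3.56 untreated in KO, and 3.55 with DSS and 3.37 untreated in WT. The KO DSS array stood above the other 3, by 0.99 over untreated KO on the probe set used here and by 1.21 and 1.60 on the other 2. In WT the 3 probe sets gave 0.18, -0.23 and 0.18. Its ligand gene Cd40lg, of activated T cells, read 2.02 with DSS and 2.77 untreated in KO, and 2.62 with DSS and 2.55 untreated in WT. That is not above background on the KO DSS array.

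**Figure D3:**
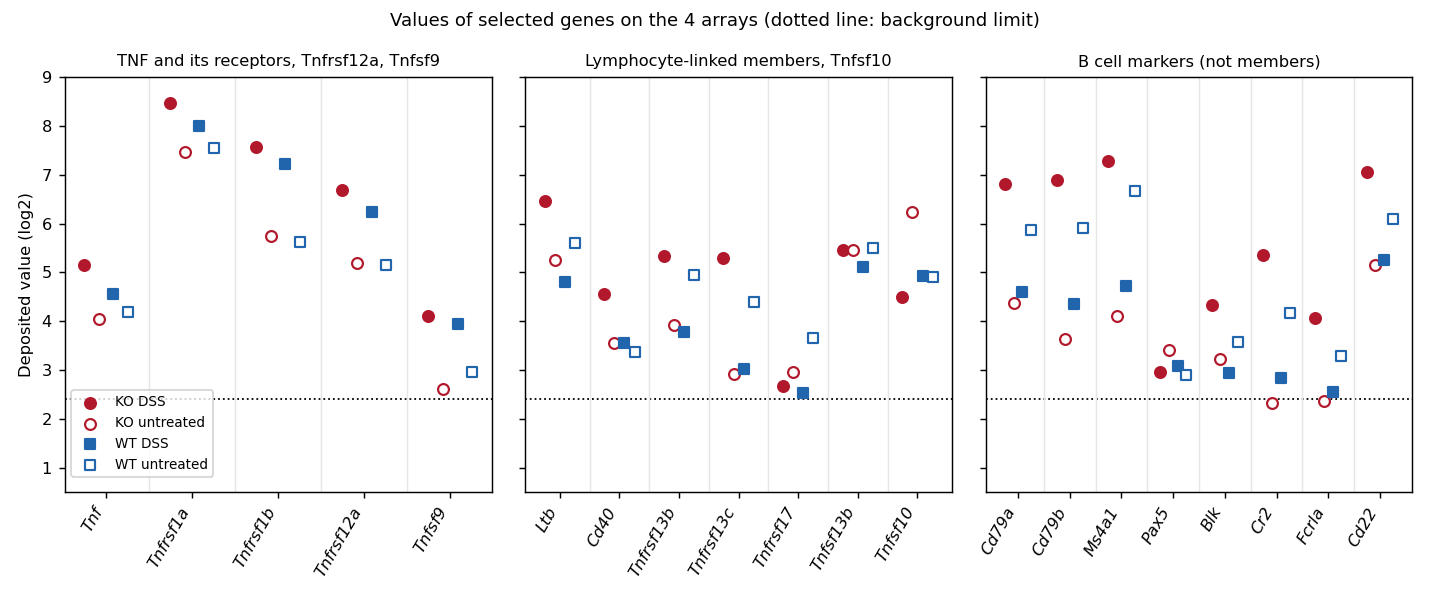
Deposited log2 values (y axis) on the 4 arrays for 5 genes around TNF (left), 7 others, Tnfsf10 and lymphocyte-linked genes (middle) and 8 B cell markers that are not of the family (right), with a dotted line at 2.41. In the left panel both filled symbols lie above both open ones for each gene, and in the others Tnfrsf13b, Tnfrsf13c and 7 of the 8 B cell markers have the KO DSS and WT untreated arrays on top.

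Tnfsf10 was the gene of the family that was at least 2-fold lower with DSS in KO. It encodes TRAIL, a death ligand that interferons induce. It read 4.49 with DSS and 6.24 untreated in KO, and 4.93 with DSS and 4.91 untreated in WT. The untreated KO array alone was high, and the difference with DSS was -1.75 in KO and 0.02 in WT. The other 2 probe sets gave -1.14 and -1.09 in KO. Against untreated WT, the KO DSS value differed by -0.42, under 2-fold. Of 13 T and NK cell markers, 2 were at least 2-fold lower with DSS in KO, Nkg7 (-1.79) and Gzmb (-1.40), against none with untreated WT as baseline, and their summed signal was 256.1 with DSS and 389.6 untreated in KO, and 234.8 with DSS and 251.8 untreated in WT. Whether they bear on Tnfsf10 was not tested. Its receptor gene Tnfrsf10b read 2.1 on both KO arrays, and 2.54 with DSS and 1.60 untreated in WT, so it was above background on the WT DSS array alone.

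Other receptors differed less with DSS on the probe set used for each gene. Tnfrsf19, known as TROY, a receptor of intestinal stem cells, read 2.52 with DSS and 3.45 untreated in KO, and 2.82 with DSS and 2.88 untreated in WT, differences of -0.93 and -0.06. A second probe set was above background on the untreated KO array alone, at 3.56, at least 1.15 above each other array. Tnfrsf11a, which encodes RANK, needed for the M cells over follicles, read 5.58 with DSS and 6.07 untreated in KO, and 6.19 with DSS and 6.03 untreated in WT, differences of -0.49 and 0.16. Its second probe set had the opposite sign in KO, at 0.60. Fas, the death receptor of T cell killing, read 4.62 with DSS and 4.21 untreated in KO, and 3.89 with DSS and 4.01 untreated in WT. It differed by 0.41 and -0.12. Ngfr, the low-affinity neurotrophin receptor, differed by 0.78 and -0.13, and Tnfrsf18, the T cell receptor GITR, by 0.70 and 0.17. The dim ligand genes Eda and Fasl, like Tnfrsf21, Tnfrsf25, Tnfrsf4 and Tnfrsf14 differed by no more than 0.41 in size in either genotype.

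Decoy receptors were the smallest group. Tnfrsf11b encodes osteoprotegerin, the soluble decoy for RANK ligand, and on the probe set with the highest mean it read 2.76 with DSS and 2.23 untreated in KO, and 2.60 on both WT arrays. Its second probe set was above background on the KO DSS array alone, at 3.44, at least 1.03 above each other array. The ligand gene Tnfsf11 had the same feature. Its second probe set read 3.43 on the KO DSS array and between 1.05 and 1.26 on the others, at least 1.02 lower, while the one with the highest mean was not above background on any array. These second probe sets were singled out after their values were seen. Tnfrsf23 read 3.09 with DSS and 2.22 untreated in KO, and 2.23 with DSS and 1.68 untreated in WT, above background on the KO DSS array alone. Tnfrsf22 differed by 0.35 in KO and 0.24 in WT. Tnfrsf22 and Tnfrsf23 are neighbouring relatives on chromosome 7, and cross-hybridisation between them was not tested.

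Among the DSS-treated mice, KO was compared with WT, to ask whether the loss of Adamts12 goes with a different response. This comparison shares the KO DSS array with the DSS comparison in KO and the WT DSS array with that in WT, so they are not independent. At least 2-fold higher in KO were 4 of the 39 genes, against 2.95% of all genes, and none was 2-fold lower, against 0.824%. They were Tnfrsf13c (2.28, or 4.86-fold), Ltb (1.65), Tnfrsf13b (1.55) and Cd40 (1.00, and 1.12 and 1.47 on its other probe sets). Cd40 lay at the threshold, and fell under it with quantile normalization (0.95) or median centring (0.99), where the count was 3. The median log2 difference of the 39 genes was 0.13, against -0.02 over all genes. Next came Tnfrsf23 (at least 0.68), Ngfr (0.75), Fas (0.73), Tnfrsf18 (0.64) and Tnf (0.61).

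The genes around TNF that were higher with DSS in both genotypes stayed under 2-fold between the DSS-treated mice on the probe sets used. Tnfrsf1b was higher in KO by 0.34, Tnfrsf12a by 0.44 (1.12 on its second probe set), Tnfrsf1a by 0.46 and Tnfsf9 by 0.16. On the second probe set of Tnfrsf1b the difference was -0.15. The lowest KO minus WT differences above background were those of Tnfrsf11a (-0.61) and Tnfsf10 (-0.44). Cd40lg and Tnfrsf14 were not above background on the KO DSS array, and were lower there by at least the distance to the limit, -0.21 and -0.26. Tnfrsf14 read 2.1 with DSS and 2.13 untreated in KO, and 2.67 with DSS and 2.57 untreated in WT. Tnfrsf14 encodes HVEM, a receptor for LIGHT and BTLA. Of the B cell markers 7 of 8 reached 2-fold in KO, with a median of 2.00, of the neutrophil markers 5 of 10 (1.26) and of the fibroblast markers 2 of 8 (0.73). T and NK cell markers had a median of 0.06, with 1 of 13 at least 2-fold higher. The part of these cells, and of gut position, in the differences between the DSS-treated mice was not tested.

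Without DSS, KO was compared with WT to ask what the loss of Adamts12 goes with in the uninjured colon. Tnfsf10 was higher in KO and both BAFF receptor genes were lower. At least 2-fold higher was 1 of the 39 genes, against 2.5% of all genes, and 2 were at least 2-fold lower, against 4.17%. Tnfsf10 was higher by 1.33 (0.48 and 0.94 on its other probe sets), and the lower genes were Tnfrsf13c (-1.48) and Tnfrsf13b (-1.01). Tnfrsf17 differed by -0.71, and Tnfrsf14, not above background in untreated KO, by -0.16 to the limit. The median log2 difference was 0.11, against 0.07 over all genes.

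Between the untreated colons TNF and its receptors differed by -0.14 (Tnf), -0.09 (Tnfrsf1a) and 0.11 (Tnfrsf1b), and the TWEAK receptor gene Tnfrsf12a by 0.04. Tnfsf8, the ligand of CD30, read 2.84 with DSS and 3.24 untreated in KO, and 2.79 with DSS and 2.60 untreated in WT. It was higher in untreated KO by 0.64, and Tnfrsf19 by 0.57 (at least 1.15 on its second probe set). In the untreated KO colon 4 of 8 B cell markers were at least 2-fold lower and none higher (median -1.22), and of 13 T and NK cell markers 2 were higher (Gzmb by 1.67 and Nkg7 by 1.16) and none lower (median 0.47). The part of those cells, and of the difference in gut position, in these values was not tested.

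In neither direction did a gene of the family differ at least 2-fold between KO and WT under both treatments, against 0.132% of all genes higher and 0.165% lower. The BAFF receptor genes Tnfrsf13b and Tnfrsf13c were the 2 that were at least 2-fold higher in KO with DSS and lower without, against 0.577% of all genes. In limma's model with treatment as covariate, none of the 39 genes passed for genotype at an adjusted p under 0.05, and 0.0% of all genes did. At an unadjusted p under 0.05 limma found 1 of the 39, Tnfrsf23 (log2 difference 0.70, SE 0.20, adjusted p = 1), against 1.63% of all genes.

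Genes that carry or are known to follow TNF receptor signals were described from lists. Of 23 adaptor and kinase genes, 2 reached 2-fold higher values with DSS in KO and 1 in WT, and none was lower, with medians of 0.06 and 0.12. Against untreated WT, 1 of the 23 was at least 2-fold higher on the KO DSS array. Ripk3, the kinase of necroptosis, was higher in both, by 1.56 and 1.63, with values of 7.59 with DSS and 6.03 untreated in KO, and 7.56 with DSS and 5.93 untreated in WT. Birc3, an inhibitor of apoptosis bound to TRAF2, differed by 1.26 in KO, by 0.03 when KO DSS was set against untreated WT, and by -0.83 in WT. The highest mean DSS differences after Ripk3 were those of Map3k7 (0.41 in KO, 0.45 in WT) and Ikbkb (0.53 and 0.12), and the lowest those of Tab1 (-0.60 and -0.10), Map3k5 (-0.10 and -0.33) and Rnf31 (-0.57 and 0.14).

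Some NF-kB subunits and inhibitors were higher with DSS. Of 10 genes, 3 were at least 2-fold higher in KO and 1 in WT, none lower, with medians of 0.87 and 0.33. Rel, a subunit of lymphoid and myeloid cells, was higher by 2.27 in KO and 0.91 in WT, Nfkbie by 2.22 in KO with -0.12 in WT, and Bcl3, a nuclear partner of NF-kB, by 0.69 and 1.10. The other gene past 2-fold in KO was Nfkbiz, at 1.38, with -0.11 in WT. Against untreated WT, 3 of the 10 were at least 2-fold higher on the KO DSS array, Rel (1.80), Nfkbie (1.46) and Nfkbid (1.16), and Nfkbiz differed by 0.25. The lowest mean differences were those of Relb (-0.23 and -0.09), Nfkbib (0.08 and 0.33) and Nfkbia (0.94 and -0.08), the last encoding the inhibitor IkB alpha. The difference between the genotypes was not tested.

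Of 19 genes of NF-kB feedback or known induction by TNF, DSS went with at least 2-fold higher values for 13 in KO and lower for 1, and with higher values for 3 and lower for 2 in WT, with medians of 1.35 and 0.05. Against the untreated WT array 10 of the 19 were at least 2-fold higher on the KO DSS array and none lower (median 1.38), and against the WT DSS array 9 and none. Higher in both were Cxcl2 (at least 5.31 in KO, 3.38 in WT), Ier3 (2.26 and 1.5) and Cxcl1 (1.32 and 1.07). Tnfaip2 was higher by 4.0 in KO and 0.86 in WT, and Il6 by at least 3.87 in KO, with all 3 other arrays not above background. The T cell chemokine gene Ccl5 differed by -1.37 in KO (-0.66 against untreated WT) and -0.38 in WT, Tnip1 by -0.34 and -1.14 and Ccl20 by 0.72 and -1.28. Some of these genes can be induced by other signals as well.

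The machinery of death receptors had smaller differences. Of 11 genes other than Fas and Tnfrsf10b, 1 was at least 2-fold higher with DSS in KO (Apaf1, 1.00) and none in WT, none was lower, and the medians were 0.23 and 0.31. Against untreated WT none of the 11 reached 2-fold, with Apaf1 at 0.54. Casp8, which death receptors recruit, was higher by 0.48 and 0.64, and Mlkl, the effector of necroptosis, by 0.18 and 0.94, while Casp6 differed by -0.90 and -0.20, Daxx by -0.28 and 0.24 and Casp9 by 0.00 and 0.06. Of 8 genes of TNF processing and mRNA decay, 3 were at least 2-fold higher in KO (Ncl, Timp3 and Zfp36l1) and 1 in WT (Ncl, 1.71 and 1.38). Against untreated WT, 1 of the 8 reached 2-fold on the KO DSS array, Ncl at 1.46, while Timp3 differed by 0.96 and Zfp36l1 by 0.29. Timp3, an inhibitor of ADAM17, differed by 1.57 and -0.43, and Zfp36l1, which promotes mRNA decay, by 1.45 and -0.71. Ncl encodes nucleolin, better known for ribosome production. Rhbdf1 differed by -0.17 and -0.10 and Adam10 by 0.60 and -0.27. Adam17, the protease that releases TNF, differed by 0.36 and 0.10.

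**Figure D4:**
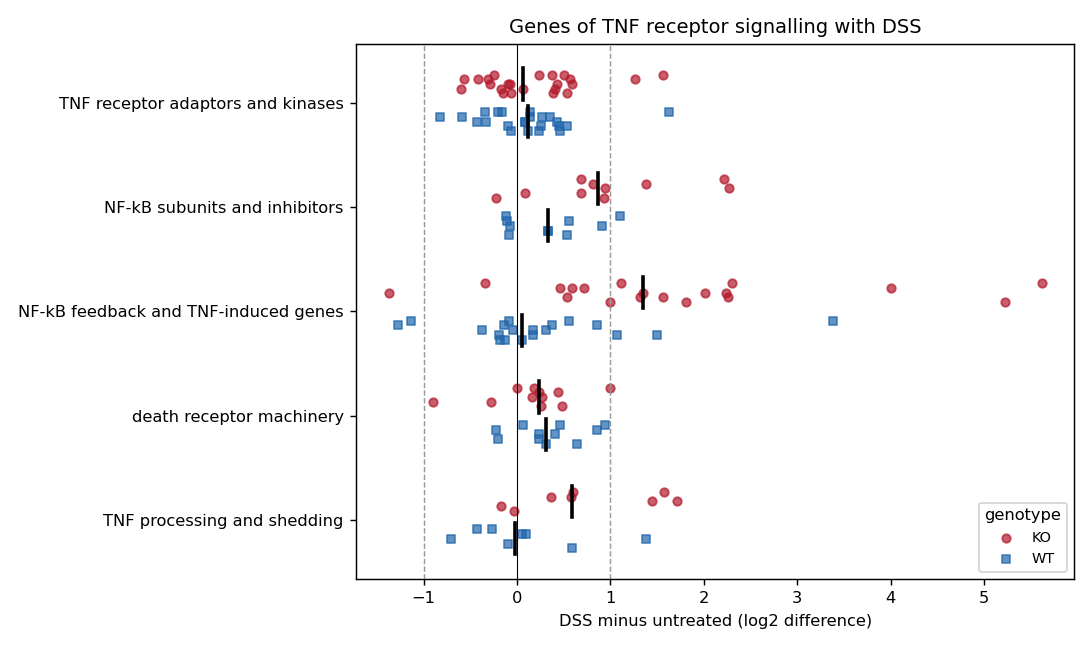
Log2 difference of DSS minus untreated (x axis) in KO (circles) and WT (squares) for the genes of 5 lists (rows), with a black bar at each median and dashed lines at 2-fold. The medians of the feedback and TNF-induced list lie at 1.35 in KO and 0.05 in WT, and those of the adaptor and death receptor lists between 0.06 and 0.31.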

How the data were processed

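Total RNA of distal colon, extracted with Trizol per the labels' protocols, was measured on Affymetrix arrays. The deposited table held the authors' log2 values for 45101 probe sets on 4 arrays, from 0.16 to 13.23. Their base was taken as 2, which gives a highest linear intensity of 9608. Base e would give 556821, brighter than scanners record. Summarization, normalization and background correction are not given in the sources used here, and the column medians lay between 3.42 and 3.46.

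Of the probe sets, 34945 had 1 symbol, 34741 of them matched by gene number to RefSeq (GRCm38.p6), 932 had several, 9160 were unnamed and 64 were controls. Each of 18193 genes was represented by its probe set with the highest mean, with no filter. Of the 39 superfamily genes, 22 lay above the array median on at least 1 array, a filter tried as an alternative, and 18 had more than 1 probe set. Promoter sequences came from RefSeq (GRCm38.p6), for 31 of the genes.

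Differences between pairs of arrays had no test. Limma (version 3.58.1, R 4.3.3) fitted all 4 arrays with lmFit and eBayes with a trend, for DSS with genotype as covariate and for genotype with treatment as covariate. This left 1 residual degree of freedom. Tests were two-sided and p-values were adjusted over all genes by Benjamini-Hochberg. The code was tested on simulated data. Python 3.11.15, numpy 2.4.6, pandas 2.3.3 and matplotlib 3.10.9 were used.

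The superfamily genes, lists and tests were chosen with earlier results of these data known, and the assignment of roles followed the values. Alternatives were another normalization, centring, filter, floor, fold threshold, probe set rule, covariate or baseline array, and each array left out. Values on each array were given for Tnf, its receptors, a fixed set of named members, those at least 2-fold apart in both genotypes, and the 4 highest and 4 lowest of each comparison. Of each list, genes at least 2-fold apart in both genotypes and the 3 with the highest and lowest mean DSS difference were named; other names were added after their values were seen.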

Additional observations from a re-analysis of the deposited data

Results flagged for a closer look

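The DSS difference had opposite signs in the genotypes, at least 2-fold each way, for 2 genes. For Tnfrsf13c it was 2.39 in KO and -1.37 in WT, 3.76 apart on the log2 scale, and for Tnfrsf13b it was 1.40 and -1.16, 2.56 apart. With 1 array in each group this difference was not tested. The B cell markers had medians of 2.17 in KO and -1.05 in WT, and their part was not tested.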

How the results depend on the processing

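No paired analysis was possible because each group has 1 array and the labels give no replicate numbers. The count of genes at least 2-fold apart with DSS in KO was 9, and 5, each higher, with untreated WT as the baseline, as Ltb, Tnf, Tnfrsf13b, Tnfrsf13c, Tnfrsf1a and Tnfsf10 then lay under 2-fold and Cd40 and Tnfrsf23 above it. At 1.5-fold the counts were 15 with DSS in KO (28.3% of all genes), 9 with DSS in WT (18.9%; 5 genes at 2-fold), 11 for KO against WT with DSS (10.8%; 4 genes) and 5 without (20.1%; 3 genes). On second probe sets, an alternative chosen after seeing the data, 7 of 18 genes were at least 2-fold apart with DSS in KO and 1 in WT. For KO against WT, 4 were so with DSS and 1, Tnfrsf19, without. Tnfrsf13b, Tnfrsf13c and Tnfrsf17 have 1 probe set each and are not among these 18. Of 21 differences of at least 2-fold, 21 kept their sign and 11 stayed at least 2-fold in every alternative that gave a value. Limma called 0 of the 39 genes for either factor in every setting that kept all 4 arrays. It called 0 to 1 of all genes in those settings, so this count says little about the 39. The fits that left out an array had no covariate, so they do not separate DSS from genotype. The counts of marker and pathway genes against untreated WT were also added after seeing the data. Values near the background limit of 2.41 limit what dim genes can show.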
